A study of Mus musculus with 48 samples.

Results

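The 10 genes described here encode beta-catenin (Ctnnb1), the proteins that mark it for degradation (Gsk3b, Apc, Axin1, Axin2 and Btrc) and the TCF/LEF transcription factors it binds in the nucleus (Lef1, Tcf7, Tcf7l1 and Tcf7l2). They were taken by name from a deposited count table of 55357 genes, and all 10 were among the 21390 genes with enough reads to be tested. The table holds 48 bulk RNA sequencing libraries from 24 wild-type C57BL/6J mice, whose age the series record gives as 6 to 8 weeks, while the methods of the study give a slightly older range. Each mouse received kainate, a glutamate receptor agonist that induces status epilepticus (SE), or saline into the hippocampus of 1 side, and the dorsal dentate gyrus of both sides was sequenced 3, 7 or 14 days later. The ipsilateral side is called the epileptogenic zone (EZ) and the contralateral side the peri-ictal zone (PIZ). Region, injection and day gave 12 groups of 4 mice, 2 male and 2 female per the records, with no sex given for a single library. Seizures were scored by behaviour without EEG, and the saline-injected mice went through the same surgery.

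In the canonical Wnt pathway, beta-catenin in the cytoplasm is held by a destruction complex, in which the scaffolds Axin1, Axin2 and Apc bring it to the kinase Gsk3b. Phosphorylated beta-catenin is recognised by beta-TrCP, the product of Btrc, and is then ubiquitinated and degraded. When a Wnt ligand binds its receptors the complex is recruited to the membrane, beta-catenin accumulates and, with a TCF/LEF factor, activates genes of which Axin2 is the usual reporter. In the adult dentate gyrus the pathway is known for its part in the formation of new granule neurons. These controls act largely on protein, whereas the values below are RNA levels.

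The libraries held 17762656 to 25712975 counts. All 10 granule cell markers listed, of which Prox1 and Stxbp6 were the most abundant, were above 0 in all 48 libraries. Because the tissue is a mixture of cells, fewer cells of a type and less RNA per cell cannot be told apart in any value below. Libraries of some kainate-injected mice stood apart from their group: in the EZ, mice 21 and 35 at 7 days, mouse 27 at 14 days and mouse 38 at 3 days. Values without these mice are given beside the main counts that changed.

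Levels of single libraries are CPM, the reads of a gene scaled to a common library total by the trimmed mean of M values (TMM), and they are listed in the same order of mice within a group throughout. For saline-injected mice this order is 18, 29, 37 and 41 at 3 days, 20, 33, 34 and 89 at 7 days and 24, 28, 31 and 39 at 14 days. For kainate-injected mice it is 30, 38, 42 and 44 at 3 days, 21, 23, 26 and 35 at 7 days and 14, 27, 36 and 40 at 14 days. Differences are log2 fold changes of kainate against saline from edgeR's quasi-likelihood test with Benjamini-Hochberg adjustment over all 21390 genes. Values after ± are standard errors (SE) for fold changes and standard deviations (SD, n = 4) for levels. A gene passed at an adjusted p under 0.01, and it was a differentially expressed gene (DEG) if its fold change was also over 1.5.

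Per kilobase of exon, Ctnnb1 was the most abundant of the 10 in the EZ of saline-injected mice 3 days after injection, at 62.9 ± 1.70 CPM per kb (SD, n = 4). Gsk3b at 19.3 ± 1.05 and Apc at 17.2 ± 0.852 CPM per kb came next. Axin2 at 3.88 ± 0.21, Axin1 at 3.86 ± 0.189 and Btrc at 3.27 ± 0.0521 CPM per kb formed a lower step, in which Axin1 and Axin2 did not differ beyond their spread. The 4 TCF/LEF factors were lowest, with Tcf7 at 0.772 ± 0.161, Tcf7l1 at 0.504 ± 0.0887, Tcf7l2 at 0.436 ± 0.103 and Lef1 at 0.430 ± 0.049 CPM per kb. Among those 4, the levels of Tcf7l1, Tcf7l2 and Lef1 overlapped.

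The order depended on the gene length used, among the abundant members as well as the low ones. With the longest transcript in place of all exons, Btrc, whose exons span 23923 bp in total but 4720 bp in its longest transcript, moved to 16.6 CPM per kb, above Axin1 at 4.45 and Axin2 at 4.66. On that scale Lef1, at 1.09 CPM per kb, was above Tcf7l2 at 0.929, Tcf7 at 0.809 and Tcf7l1 at 0.762. Ctnnb1 remained the most abundant, at 104 CPM per kb, but Apc at 23.8 was then above Gsk3b at 22.8 CPM per kb. The libraries of Apc and Gsk3b overlapped on this scale, as did those of Lef1 and Tcf7l2.

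In the EZ 3 days after SE, beta-catenin and 3 TCF/LEF factors were higher and a kinase and a ubiquitin ligase subunit of the destruction pathway were lower in kainate-injected mice. Ctnnb1, Lef1, Tcf7 and Tcf7l1 rose, Gsk3b and Btrc fell, and Apc, Axin1, Axin2 and Tcf7l2 did not pass. Of all genes tested, 35.2% passed in this comparison, 20.5% upwards and 14.7% downwards, against 6 of the 10, 4 upwards and 2 downwards. Lef1, Tcf7 and Tcf7l1 were DEG, as were 24.7% of all genes. The median log2 fold change of the 10 was 0.163 beside 0.032 over all genes, and the median of its absolute value was 0.509 beside 0.395. With only the EZ libraries in the model, 3 of the 10 passed, namely Gsk3b, Btrc and Tcf7l1, beside 24.5% of all genes in that model. Without mouse 38 also 3 passed, beside 24.5% of all genes in that fit. Markers of other cells moved in the same comparison, with granule cell sums of 578 to 1090 CPM with kainate and 1210 to 1470 CPM with saline, and microglia and macrophage sums of 1700 to 3070 and 577 to 1010 CPM. Of the 10 markers in each list, 3 granule cell markers fell and 9 microglia and macrophage markers rose. Of 8 interneuron markers, led by Gad1 and Gad2, 6 fell, with sums of 244 to 414 CPM with kainate and 443 to 616 CPM with saline. Of 8 markers of CA1 and CA3 pyramidal neurons, led by Cpne4 and Mpped1, 4 fell, with sums of 177 to 270 and 538 to 721 CPM. All 8 proliferation markers, led by Top2a and Mki67, rose, with sums of 151 to 410 and 18.8 to 58.5 CPM. The median log2 fold changes of these 3 lists were -1.95, -1.77 and 3.06, larger in size than the -0.78 of the granule cell list. Endothelial (5 of 10 markers, sums of 456 to 833 and 320 to 363 CPM) and oligodendrocyte precursor markers (5 of 8, 351 to 526 and 207 to 246 CPM) rose without overlap of the sums. T cell marker sums did not overlap either, at 3.54 to 9.6 CPM with kainate and 2.47 to 2.87 CPM with saline, and 1 of the 5 tested rose. Sums that overlapped were those of meninges and fibroblasts (5 of 8 rose, 163 to 564 and 170 to 332 CPM) and of astrocytes, of whose 10 markers 5 rose and 3 fell (8830 to 10500 and 6810 to 9700 CPM). The part of these cells in the values of the 10 genes was not tested.

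In the EZ 7 days after SE, 9 of the 10 passed, all but Axin1, beside 45.6% of all genes. Ctnnb1, Lef1, Tcf7, Tcf7l1 and Tcf7l2 rose, as did 25.9% of all genes, and Gsk3b, Apc, Btrc and Axin2 fell, as did 19.7%. Gsk3b, Btrc and the 4 TCF/LEF factors were DEG beside 32.5% of all genes. The 10 had a median absolute change of 0.622 on the log2 scale, and all genes had 0.48. With only the libraries of this comparison in the model, 2 of the 10 passed, namely Axin2 and Tcf7l1, beside 22% of all genes, while 8 passed with only the EZ libraries, beside 38.2%. Kainate and saline libraries did not overlap for 6 of the 10 genes at 3 days, beside 42.4% of all genes, and for 7 of the 10 at 7 days, beside 43.8%.

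**Figure D1:**
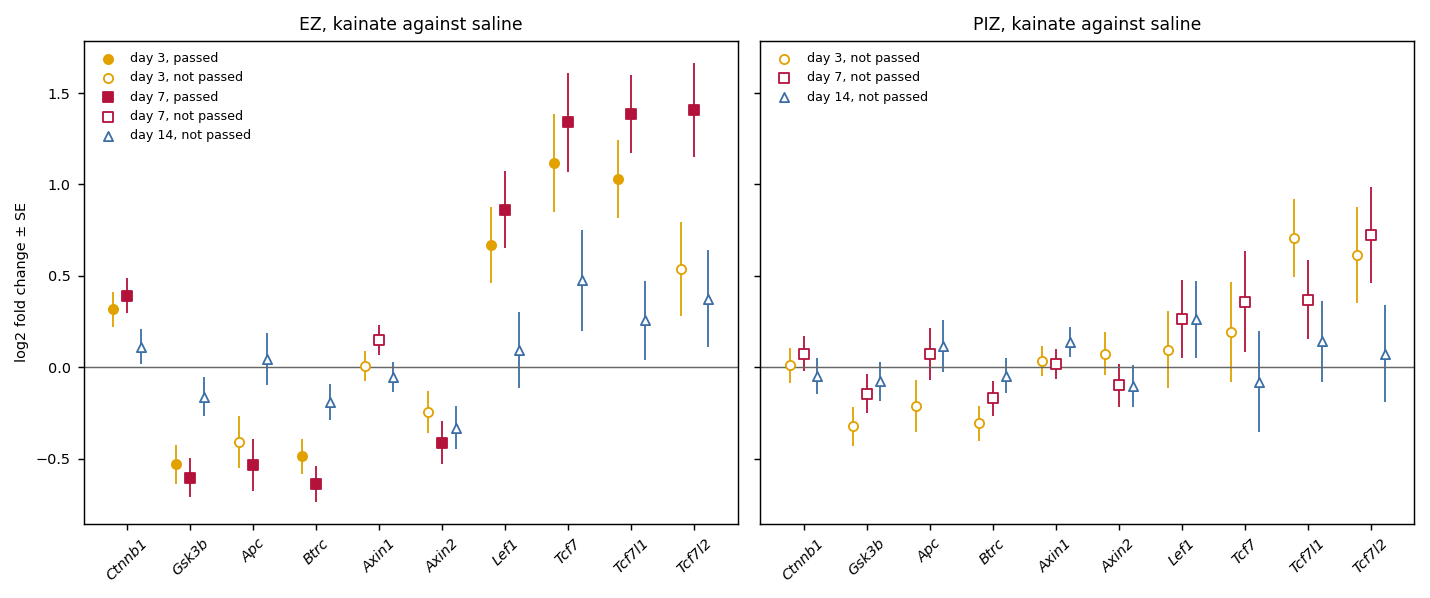
Log2 fold change of kainate against saline (y axis; lines span 1 standard error either way) for the 10 genes (x axis) in the EZ (left) and PIZ (right) at 3, 7 and 14 days, with filled symbols where the gene passed. In the EZ at 7 days the 4 TCF/LEF factors lie between 0.86 and 1.41 and Gsk3b, Apc, Btrc and Axin2 between -0.64 and -0.41, and no symbol is filled at 14 days or in the PIZ.

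Ctnnb1 (ENSMUSG00000006932.18, GRCm39 chr9:120757422-120789579, plus strand) encodes beta-catenin, which joins cadherins to the cytoskeleton and is the transcriptional co-activator of the pathway. Its EZ level 3 days after injection was 497, 529, 509.9 and 519 CPM in the 4 saline-injected mice and 710.4, 676, 656 and 518 CPM in the 4 kainate-injected mice. The first 3 kainate-injected mice were above all saline-injected mice, and mouse 44 lay among them. The log2 fold change was 0.32 ± 0.096 (adjusted p = 0.00614), a 1.25-fold rise, and the call was lost when any of 7 of the 8 mice was left out, with adjusted p up to 0.034.

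At 7 days Ctnnb1 stood at 452, 502, 489.8 and 524 CPM with saline and 599.5, 696, 626 and 659.7 CPM with kainate. The groups did not overlap, at 492 ± 30.3 and 645 ± 41.8 CPM. The rise was 1.31-fold, with a log2 fold change of 0.39 ± 0.096 (adjusted p = 0.000672), and it was also called when each mouse was left out. At 14 days the values were 501, 518, 484 and 498 CPM with saline and 461, 735, 492 and 477 CPM with kainate. Only mouse 27 was above the saline range, and the log2 fold change of 0.11 ± 0.096 (adjusted p = 0.568) was -0.071 without that mouse. Exons of Ctnnb1 overlap the antisense gene Ulk4 over 9.37% of their length, and the counting used strand.

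Gsk3b (ENSMUSG00000022812.15, chr16:37909363-38066446, plus strand) encodes the kinase that phosphorylates beta-catenin for degradation. Its EZ level at 3 days was 203, 178, 192 and 187 CPM with saline and 144, 122, 126 and 133 CPM with kainate. All 4 kainate-injected mice were below all saline-injected mice, and Gsk3b fell 1.44-fold, with a log2 fold change of -0.53 ± 0.11 (adjusted p = 9.86e-05).

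At 7 days Gsk3b was at 191, 178, 179 and 198 CPM with saline and 93.6, 149.9, 140.1 and 107 CPM with kainate. The groups again did not overlap, and mice 21 and 35 were the lowest. The fall was 1.52-fold, with a log2 fold change of -0.60 ± 0.11 (adjusted p = 9.64e-06). At 14 days Gsk3b stood at 185, 172, 189.5 and 183 CPM with saline and 182, 126, 199.8 and 145 CPM with kainate, and the kainate-injected mice lay on both sides of the saline range, with a log2 fold change of -0.16 ± 0.11 (adjusted p = 0.437).

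Btrc (ENSMUSG00000025217.16, chr19:45352111-45518453, plus strand) encodes beta-TrCP, the substrate-binding subunit of the ubiquitin ligase that takes up phosphorylated beta-catenin. Its EZ level at 3 days was 79.8, 77.2, 77.2 and 78.5 CPM with saline and 59.2, 46.5, 54.3 and 63.2 CPM with kainate. The saline-injected mice lay within 3 CPM of each other and every kainate-injected mouse was below them. Btrc fell 1.4-fold, with a log2 fold change of -0.49 ± 0.097 (adjusted p = 9.2e-05).

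The fall of Btrc at 7 days was 1.56-fold, with 77.9, 86.8, 79.98 and 80.8 CPM with saline, 37.6, 61.6, 64.8 and 45.3 CPM with kainate and a log2 fold change of -0.64 ± 0.097 (adjusted p = 1.07e-06). Mice 21 and 35 were the lowest here too, and no library overlapped between the groups. At 14 days Btrc was the only member without overlap in the EZ, at 89.3, 82.03, 89.9 and 82.2 CPM with saline and 79.6, 64.3, 81.5 and 75.5 CPM with kainate, where 8% of all genes did not overlap. Its log2 fold change then was -0.19 ± 0.097 (adjusted p = 0.292), which did not pass.

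Apc, the large scaffold of the destruction complex and a tumour suppressor, lies on chr18:34353942-34455605 (ENSMUSG00000005871.16, plus strand). Its EZ level at 3 days was 330.6, 298.4, 298.1 and 307.2 CPM with saline and 230.5, 203.5, 198.4 and 297.7 CPM with kainate. No library overlapped, but mouse 44 was less than 1 CPM below the lowest saline library, and the log2 fold change of -0.41 ± 0.14 (adjusted p = 0.0162) missed the threshold. Without mouse 44 it was -0.549 with an adjusted p of 0.00202, so 1 library decided the Apc call at 3 days.

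At 7 days Apc stood at 354, 289, 294 and 329 CPM with saline and 203, 246, 234 and 190.3 CPM with kainate, again without overlap. Apc fell 1.45-fold, with a log2 fold change of -0.54 ± 0.14 (adjusted p = 0.00148), and the call was lost without mouse 35, at an adjusted p of 0.011. At 14 days kainate-injected mice were both above and below the saline range, at 339, 216, 359 and 237 CPM with kainate and 295, 286, 293 and 242 CPM with saline.

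Axin1 and Axin2 are the scaffolds that assemble the complex. Axin1 (ENSMUSG00000024182.18, chr17:26350235-26414789, plus strand), which is present in most cells, was between 27.5 and 35.3 CPM in the saline-injected mice and between 24.9 and 34.8 CPM in the kainate-injected mice of the EZ over all 3 days. Its log2 fold change was 0.008 ± 0.083 (adjusted p = 0.946) at 3 days and 0.15 ± 0.083 (adjusted p = 0.128) at 7 days, and it passed in none of the comparisons made. Axin2 (ENSMUSG00000000142.16, chr11:108811169-108841609, plus strand), whose transcription beta-catenin and TCF/LEF are known to drive, was at 25.9, 31.3, 28.4 and 26.6 CPM with saline and 21.6, 20.2, 22.1 and 20.4 CPM with kainate at 7 days. No library overlapped, and Axin2 fell 1.33-fold, with a log2 fold change of -0.41 ± 0.12 (adjusted p = 0.00277).

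The Axin2 call at 7 days was lost without saline mouse 33, at an adjusted p of 0.0175. At 3 days Axin2 stood at 25.2, 28.7, 27.3 and 26.4 CPM with saline and 20.8, 20.4, 21.98 and 27.5 CPM with kainate, where mouse 44 alone lay in the saline range, with a log2 fold change of -0.25 ± 0.12 (adjusted p = 0.0783). At 14 days it had the smallest p of the 10 genes, with 26.1, 31.5, 31.8 and 30.04 CPM with saline and 24.1, 17.8, 24.4 and 28.7 CPM with kainate. Of the 4 kainate-injected mice, 3 were below every saline-injected mouse, and the log2 fold change of -0.33 ± 0.12 (adjusted p = 0.0974) did not pass. At 7 days the fall of Axin2 stood against the rise of Ctnnb1 and of the 4 TCF/LEF factors in the same libraries.

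**Figure D2:**
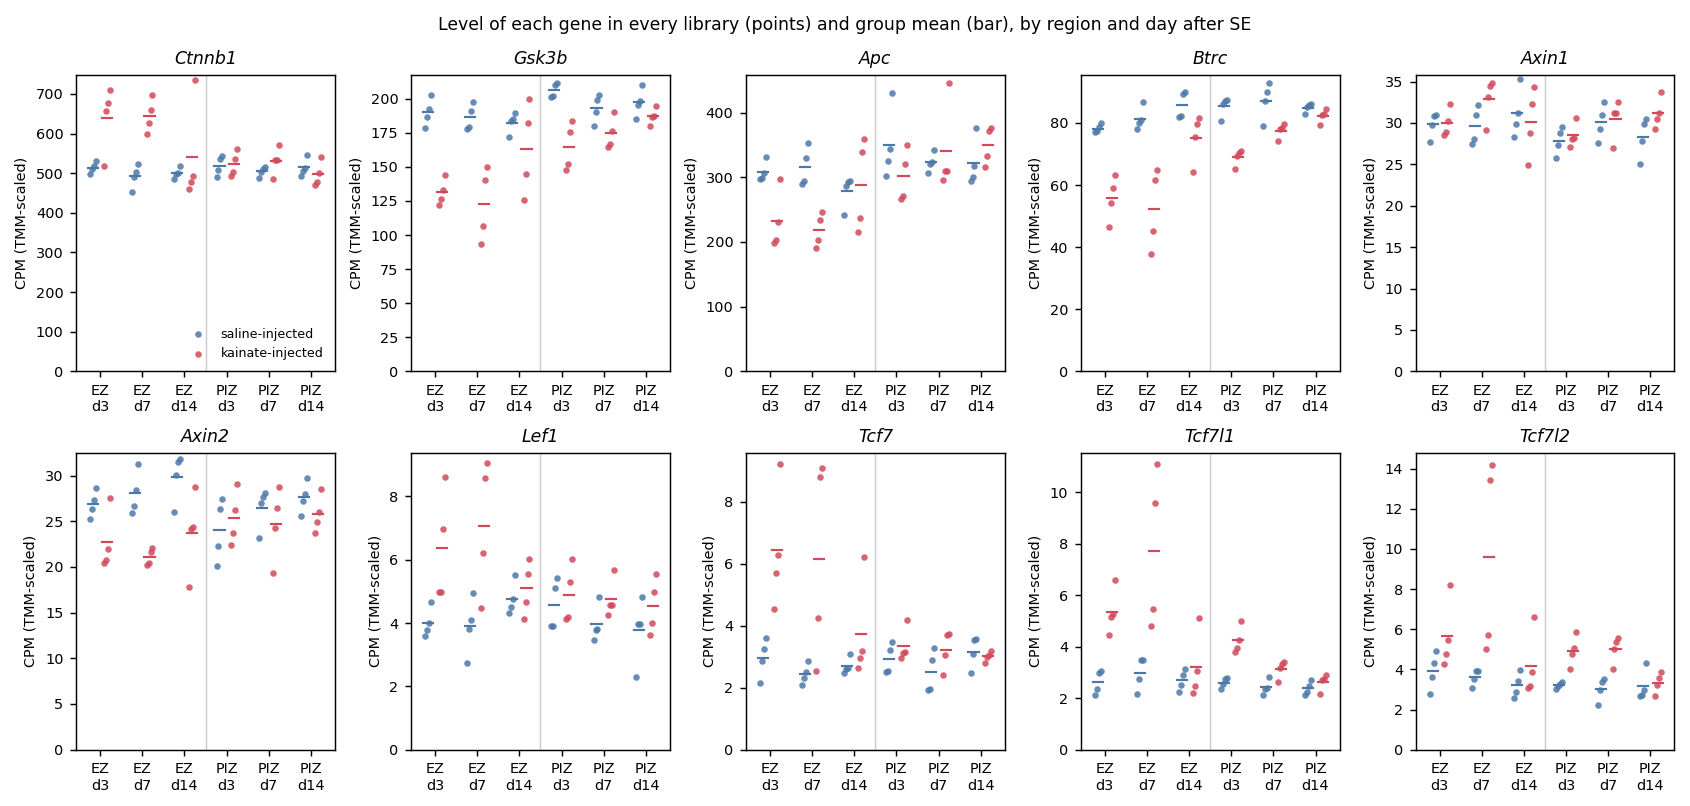
CPM (y axis, linear, from 0) of the 10 genes in every library by region and day, with 1 point per library in blue for saline-injected and red for kainate-injected mice and a bar at the group mean. In the EZ at 7 days the kainate points of Gsk3b, Apc, Btrc and Axin2 lie below and those of Ctnnb1, Tcf7l1 and Tcf7l2 above all saline points.

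The TCF/LEF factors bind the same core sequence through an HMG box and recruit beta-catenin as activator or, without it, Groucho/TLE co-repressors. Their own promoter windows were searched for that core because all 4 factors passed upwards at 7 days, and the stretches holding a match are shown. Kainate and saline libraries overlapped for Lef1 and Tcf7 at 7 days, and of the 4 only Tcf7l1 passed without mice 21 and 35. RefSeq windows of 300 bases on GRCm38.p6, from 250 bases before to 50 after a start, were matched by symbol for 7 of the 10 genes, with 13 starts, and not for Apc, Btrc or Axin1. The letters CAAAG preceded by AT, AA, TT or TA, that is 4 motifs of 7 letters that cannot match at the same position, were searched on both strands and were in 2 of the 13 windows (15.4%) and in 5544 of 32851 windows of all genes (16.9%). Both matches lay at inner starts, 45997 bp from the first listed start of Lef1 and 153511 bp from that of Tcf7l2. The 250 bases before each of these starts are chr3:131156044-131156293 and chr19:55895071-55895320 (plus strand, GRCm38.p6, a different build from the GRCm39 gene positions given with the members), with the match in capitals:
Lef1 inner start: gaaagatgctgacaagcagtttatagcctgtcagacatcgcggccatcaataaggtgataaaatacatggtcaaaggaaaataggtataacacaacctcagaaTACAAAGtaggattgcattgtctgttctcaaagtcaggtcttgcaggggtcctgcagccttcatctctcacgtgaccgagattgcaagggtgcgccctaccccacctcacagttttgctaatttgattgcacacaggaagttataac
Tcf7l2 inner start: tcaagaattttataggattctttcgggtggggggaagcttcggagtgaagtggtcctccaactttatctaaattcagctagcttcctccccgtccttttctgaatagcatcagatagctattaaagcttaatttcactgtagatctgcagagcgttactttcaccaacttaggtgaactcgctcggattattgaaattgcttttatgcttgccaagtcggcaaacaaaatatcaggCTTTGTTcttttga
The capitals begin 147 and 14 bases before the respective start. The counts pool all starts of a gene, so they do not show which start was used. The member windows had a median GC content of 67.3%, beside 52.7% over all windows.

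Tcf7 (ENSMUSG00000000782.17, chr11:52143107-52174619, minus strand), best known as the T cell factor TCF1, was at 2.16, 3.24, 2.86 and 3.605 CPM with saline and 5.7, 9.22, 6.28 and 4.55 CPM with kainate in the EZ at 3 days. All 4 kainate-injected mice were above all saline-injected mice, and mouse 38 was the highest. Tcf7 rose 2.17-fold, with a log2 fold change of 1.12 ± 0.27 (adjusted p = 0.000802), and without mouse 38 the adjusted p was 0.0109.

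At 7 days Tcf7 stood at 2.501, 2.08, 2.32 and 2.87 CPM with saline and 9.09, 2.55, 4.25 and 8.79 CPM with kainate. Mice 21 and 35 were far above the rest and mouse 23 lay within the saline range, so the groups overlapped. The rise was 2.53-fold, with a log2 fold change of 1.34 ± 0.27 (adjusted p = 8.09e-05). At 14 days only mouse 27, at 6.21 CPM, was well above the saline range, and the log2 fold change was 0.48 ± 0.28 (adjusted p = 0.371). Tcf7 had 45 to 241 reads in an EZ library, which limits its precision compared with the 8755 to 18568 reads of Ctnnb1.

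Tcf7l1 (ENSMUSG00000055799.14, chr6:72603354-72766589, minus strand), which encodes TCF3, mostly a repressor of Wnt targets, was at 2.12, 3.06, 2.35 and 2.97 CPM with saline and 5.17, 6.58, 5.26 and 4.46 CPM with kainate at 3 days. The groups did not overlap, and Tcf7l1 rose 2.04-fold, with a log2 fold change of 1.03 ± 0.21 (adjusted p = 0.000138). At 7 days it stood at 3.47, 3.47, 2.73 and 2.17 CPM with saline and 11.1, 4.79, 5.46 and 9.58 CPM with kainate. All kainate-injected mice were above all saline-injected mice, with mice 21 and 35 highest, and the rise was 2.61-fold, with a log2 fold change of 1.39 ± 0.21 (adjusted p = 1.09e-06). This was the only TCF/LEF factor whose call at 3 and 7 days in the EZ was kept with each mouse left out.

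Tcf7l2 (ENSMUSG00000024985.21, chr19:55730188-55922091, plus strand) encodes the factor TCF4, known for its part in oligodendrocyte differentiation and in thalamic neurons. At 3 days its levels of 2.78, 4.91, 4.33 and 3.605 CPM with saline and 4.25, 8.23, 5.48 and 4.76 CPM with kainate overlapped, with a log2 fold change of 0.54 ± 0.26 (adjusted p = 0.0803). At 7 days it was at 3.52, 3.91, 3.096 and 3.91 CPM with saline and 13.4, 4.997, 5.69 and 14.2 CPM with kainate. Mice 21 and 35 were more than 7 CPM above the other 2 kainate-injected mice, which were themselves above the saline range. Tcf7l2 rose 2.65-fold, with a log2 fold change of 1.41 ± 0.26 (adjusted p = 1.87e-05). The gene with the symbol Tcf4, a basic helix-loop-helix factor on another locus, fell in the EZ at 7 days, with a median of 425 CPM with kainate and 573 CPM with saline and a log2 fold change of -0.44 ± 0.095 (adjusted p = 0.000163), so the shared name covers opposite directions.

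Lef1 (ENSMUSG00000027985.15, chr3:130903919-131018005, plus strand), a factor of progenitor cells, lymphocytes and brain endothelium, was at 3.796, 4.01, 4.66 and 3.605 CPM with saline and 4.97, 8.61, 6.96 and 4.97 CPM with kainate at 3 days. The groups did not overlap, and Lef1 rose 1.59-fold, with a log2 fold change of 0.67 ± 0.21 (adjusted p = 0.00798). The call was lost without any of 5 of the 8 mice, with adjusted p up to 0.0671. At 7 days Lef1 stood at 4.08, 4.95, 3.82 and 2.73 CPM with saline and 8.58, 4.49, 6.2 and 9.04 CPM with kainate, with mouse 23 in the saline range. It rose 1.82-fold, with a log2 fold change of 0.86 ± 0.21 (adjusted p = 0.000622). The antisense gene Lef1os1 shares 16.26% of the exonic length of Lef1, and reads were counted by strand.

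In the EZ at 7 days the shares of the 4 factors in their summed level overlapped between kainate and saline. Per kilobase of exon, Tcf7 made up 31.7 ± 6.0% of the summed level of the 4 factors in the EZ at 7 days with saline and 31.5 ± 4.2% with kainate. The share of Tcf7l1 was 27.9 ± 4.2% with saline and 30.9 ± 3.1% with kainate, that of Tcf7l2 19.9 ± 2.2% and 21.3 ± 2.2%, and that of Lef1 20.5 ± 3.7% and 16.3 ± 2.9%. The order of the shares depended on the length used. With the longest transcript Tcf7 was the smallest share with saline, at 19.7%, and Lef1 the largest, at 30.5%, beside 19.9% and 24.8% with kainate, and the groups again overlapped. In mice 23 and 26, without mice 21 and 35, the shares per kilobase of exon were 25.3 and 32% for Tcf7, 35.1 and 30.3% for Tcf7l1, 21.3 and 18.4% for Tcf7l2 and 18.3 and 19.2% for Lef1. At 3 days 1 share per kilobase of exon did not overlap in each region. The share of Tcf7l2 in the EZ was 17.5 to 22.7% with saline and 13.6 to 17.1% with kainate, and that of Tcf7l1 in the PIZ was 22.8 to 24.5% and 26.5 to 32.6%.

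Several of the 7-day values in the EZ, though not those of Ctnnb1 and Axin2, rested in large part on mice 21 and 35. Markers of several cell types moved with these mice. Markers of granule cells summed to 254 and 414 CPM in mice 21 and 35, to 1200 and 1140 CPM in mice 23 and 26, and to 1020 to 1640 CPM with saline. Microglia and macrophage markers, among them Csf1r, summed to 7460 and 5380 CPM in mice 21 and 35, to 1940 and 2840 CPM in mice 23 and 26, and to 492 to 545 CPM with saline. All 10 of these markers rose in the EZ at 7 days, and none was at 0 in any library.

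Some of the lists of the cell types that Tcf7l2, Lef1 and Tcf7 are known for moved in the same libraries. Oligodendrocyte precursor markers, led by Pdgfra and Gpr17, all rose (8 of 8) and summed to 720 and 749 CPM in mice 21 and 35, 275 and 342 CPM in mice 23 and 26, and 184 to 196 CPM with saline. Of the markers of newly formed oligodendrocytes, led by Fyn and Bcas1, 6 of the 7 found rose, with sums of 891 and 815 CPM in mice 21 and 35, 398 and 430 CPM in mice 23 and 26, and 308 to 368 CPM with saline. Of the endothelial markers, led by Flt1 and Slco1a4, 7 of 10 rose, with sums of 616 and 612 CPM in mice 21 and 35, 329 and 386 CPM in mice 23 and 26, and 300 to 340 CPM with saline. Of the markers of mature oligodendrocytes, led by Mbp, 3 of 10 rose, and their sums were 10600 and 7010 CPM in mice 21 and 35, 4090 and 3600 CPM in mice 23 and 26, and 2630 to 5460 CPM with saline. Markers of thalamic and habenular neurons, led by Prkcd and Rora, went in both directions, with 1 higher and 4 lower of the 11 tested and a median log2 fold change of -0.205. Their sums were 204 and 175 CPM in mice 21 and 35, 98.1 and 124 CPM in mice 23 and 26, and 131 to 158 CPM with saline. Of 8 markers of immature neurons, led by Dcx and Neurod1, none passed in edgeR, and their sums of 52.9 to 138 CPM with kainate and 83 to 119 CPM with saline overlapped.

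T cell markers, led by Lck and Il7r, summed to 14.7 and 12.8 CPM in mice 21 and 35, to 3.93 and 4.91 CPM in mice 23 and 26, and to 1.98 to 2.74 CPM with saline. Of these 10 markers 5 could be tested and 3 rose, and Cd3e, Cd3d, Cd3g, Cd4, Cd8a, Cd28 and Themis were at 0 in at least 1 library. Among neurons, 5 of 8 pyramidal and 4 of 8 interneuron markers fell at 7 days, with sums of 161 to 357 and 242 to 445 CPM with kainate against 583 to 861 and 469 to 581 CPM with saline. All 8 proliferation markers rose, to 215 and 217 CPM in mice 21 and 35 and 38.3 and 102 CPM in mice 23 and 26, from 8.57 to 11.1 CPM with saline. Astrocyte markers, led by Slc1a2 and Gfap, did not follow the split between the mice, with 7 of 10 rising and sums of 13000 and 12300 CPM in mice 21 and 35, 13500 and 11900 CPM in mice 23 and 26 and 5590 to 6230 CPM with saline. Of 8 meninges and fibroblast markers, led by Ptgds and Igf2, 6 rose, with sums of 590 and 432 CPM in mice 21 and 35, 168 and 236 CPM in mice 23 and 26 and 222 to 257 CPM with saline. The part of these cell types in the values of the 10 genes was not tested.

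Without mice 21 and 35, an alternative chosen after seeing the data, 3 of the 10 genes passed in the EZ at 7 days, beside 16.5% of all genes in that fit. The calls of the other 6 genes were lost. Those that passed were Ctnnb1 with a log2 fold change of 0.43 (adjusted p = 0.00467), Btrc with -0.36 (adjusted p = 0.00151) and Tcf7l1 with 0.79 (adjusted p = 0.00579). Tcf7 was then at 0.48 (adjusted p = 0.189), Tcf7l2 at 0.57 (adjusted p = 0.0917) and Lef1 at 0.46 (adjusted p = 0.158), and Gsk3b at -0.36 missed the threshold (adjusted p = 0.0113). Apc was at -0.40 (adjusted p = 0.064) and Axin2 at -0.41 (adjusted p = 0.0365). The levels of Ctnnb1 and Axin2 did not follow the split between these mice, since the highest Ctnnb1 level at 7 days was in mouse 23 and the 4 Axin2 levels lay between 20.2 and 22.1 CPM.

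**Figure D3:**
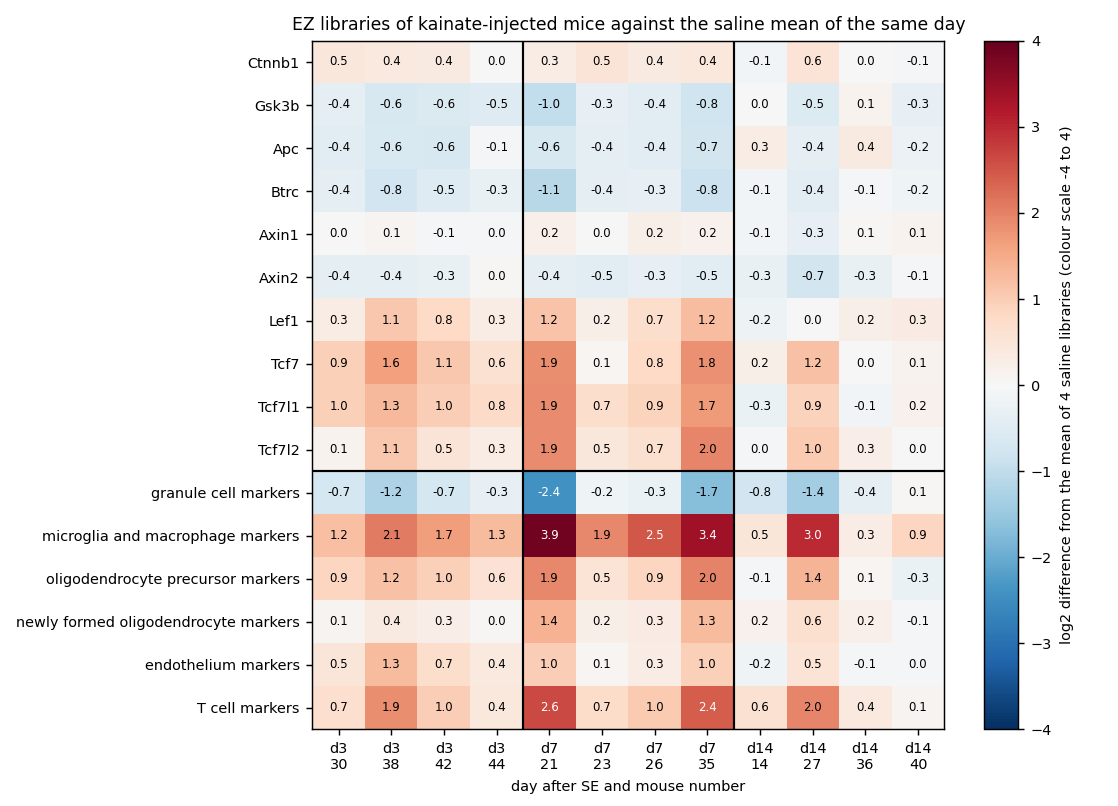
Heat map of the log2 difference of each kainate-injected mouse (columns, by day and mouse number) from the mean of the 4 saline libraries of that day in the EZ, for the 10 genes and 6 summed marker lists (rows), with red for higher and blue for lower and the value in each cell. At 7 days mice 21 and 35 have the highest Tcf7, Tcf7l1 and Tcf7l2, the lowest Gsk3b and Btrc, the highest microglia sums (7460 and 5380 CPM) and the lowest granule cell sums (254 and 414 CPM).

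Across all 48 libraries the log2 level of Btrc had a Pearson correlation of -0.93 with the microglia and macrophage sum and 0.81 with the granule cell sum, and Tcf7l1 of 0.92 and -0.75. Within the 24 saline libraries the values were -0.62 and 0.24 for Btrc and 0.28 and -0.001 for Tcf7l1. The correlation with the granule cell sum changed sign within saline for Gsk3b, from 0.68 to -0.59, for Apc, from 0.35 to -0.77, and for Lef1, from -0.53 to 0.18. It did not for Axin2 (0.68 and 0.63), Ctnnb1 (-0.57 and -0.11), Tcf7 (-0.79 and -0.23) or Tcf7l2 (-0.79 and -0.21), and that of Axin1 was 0.028 and 0.61. Gsk3b had 0.87 with the pyramidal sum over all libraries and 0.56 within saline. These correlations are descriptions over libraries that share mice, treatment groups and scaling.

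In the EZ 14 days after SE none of the 10 genes passed in edgeR, beside 2.41% of all genes. Of the 10, 1 had an unadjusted p under 0.05 in edgeR, beside 18% of all genes, and DESeq2 and limma-voom also called 0, beside 3.41% and 0.365%. Mouse 27 stood apart in most members, with the highest kainate level of Ctnnb1, Tcf7, Tcf7l1 and Tcf7l2 and the lowest of Gsk3b, Apc, Btrc and Axin2. Its microglia and macrophage markers summed to 3650 CPM, against 562 to 838 CPM in the other kainate-injected mice, and its granule cell markers to 606 CPM. The microglia and macrophage sums were 448 to 470 CPM with saline, so every kainate-injected mouse lay above saline. Without mouse 27 the log2 fold changes of Tcf7l1 (-0.061), Tcf7l2 (0.061) and Tcf7 (0.12) were near 0, and that of Btrc was -0.12.

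In the PIZ 3 days after SE none of the 10 genes passed in edgeR, beside 12.3% of all genes. Of the 10, 4 had an unadjusted p under 0.05 in edgeR, near the 35.7% of all genes. DESeq2 called 1, beside 15.4%, and limma-voom called 3, beside 23.9%. Libraries did not overlap for Gsk3b, Btrc, Tcf7l1 and Tcf7l2, that is 4 of the 10 beside 30.7% of all genes, with the direction of the EZ in each. Gsk3b was at 210.0, 201, 202 and 212 CPM with saline and 176, 183, 152 and 148 CPM with kainate, a log2 fold change of -0.32 ± 0.11 (adjusted p = 0.0232). Btrc was at 86.01, 87.5, 87.03 and 80.7 CPM with saline and 70.9, 70.4, 65.2 and 69.3 CPM with kainate, a log2 fold change of -0.31 ± 0.097 (adjusted p = 0.0186). In both genes the highest kainate library was below the lowest saline library by more than 9 CPM.

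Tcf7l1 in the PIZ at 3 days was at 2.55, 2.77, 2.73 and 2.37 CPM with saline and 3.81, 3.96, 4.25 and 4.996 CPM with kainate, a log2 fold change of 0.71 ± 0.21 (adjusted p = 0.0142). Tcf7l2 was at 3.02, 3.26, 3.38 and 3.19 CPM with saline and 4.75, 5.86, 5.06 and 3.996 CPM with kainate, a log2 fold change of 0.61 ± 0.26 (adjusted p = 0.0832). Ctnnb1, at 0.010 ± 0.095 (adjusted p = 0.955), and Lef1, at 0.096 ± 0.21 (adjusted p = 0.783), were near 0 there. All 10 microglia and macrophage markers rose in the PIZ at 3 days as well, to sums of 1130 to 1390 CPM from 334 to 461 CPM with saline, and 2 of the 10 granule cell markers fell, with sums of 913 to 1140 and 878 to 1560 CPM. All 8 proliferation markers rose, to 67.2 to 86.5 from 5.99 to 10.7 CPM, and 1 of 8 pyramidal markers fell, with sums of 344 to 512 and 607 to 824 CPM. Of the astrocyte markers 5 of 10 rose, with sums of 9330 to 10400 and 5020 to 6560 CPM, and of the oligodendrocyte precursor markers 2 of 8, with sums of 331 to 417 and 196 to 200 CPM. Sums of newly formed oligodendrocyte markers (324 to 443 and 289 to 314 CPM) and of interneuron markers (437 to 492 and 516 to 693 CPM) did not overlap either. Of the 8 interneuron markers 0 passed. The part of these cells in the values of the 10 genes in the PIZ was not tested. The 4 genes were called in a model of the PIZ libraries alone, beside 21.4% of all genes, and 3 of them at an adjusted p under 0.05 in the model of all libraries, beside 23%.

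In the PIZ 7 days after SE none of the 10 passed in edgeR, beside 0.238% of all genes, and Tcf7l2 was the only one without overlap, where 12.9% of all genes did not overlap. Of the 10, 1 had an unadjusted p under 0.05 in edgeR, beside 14.5% of all genes, DESeq2 called 0, beside 1.13%, and limma-voom called 1, beside 6.08%. Tcf7l2 was at 2.96, 3.38, 2.23 and 3.52 CPM with saline and 4.03, 5.004, 5.56 and 5.38 CPM with kainate, a log2 fold change of 0.72 ± 0.26 (adjusted p = 0.17). Marker sums there did not overlap for granule cells (630 to 1190 CPM with kainate and 1340 to 1610 CPM with saline, 0 of 10 markers passed). Nor did those of microglia and macrophages (467 to 915 and 356 to 446 CPM) or T cells (3.21 to 3.89 and 1.73 to 2.96 CPM). Immature neuron sums were 179 to 210 and 84.1 to 123 CPM, and 1 of 8 markers rose. Their part in the Tcf7l2 value was not tested. At 14 days none of the 10 genes passed in the PIZ, beside 0.014% of all genes, and none was without overlap, beside 7.18%. There 0 had an unadjusted p under 0.05 in edgeR, beside 5.97% of all genes, and DESeq2 and limma-voom called 0, beside 0.0166% and 0.79%.

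Both sides came from the same mice. The tests of the kainate effect between sides given here did not pair them, and a fit with a block for mouse is given at the end. The kainate effect on the 10 genes was not called different between EZ and PIZ in edgeR at 3 days (beside 0.0655% of all genes), 7 days (beside 11.3%) or 14 days (beside 0%). At 3, 7 and 14 days, 2, 6 and 0 of the 10 had an unadjusted p under 0.05 in edgeR, beside 17.9%, 40.2% and 7.3% of all genes. DESeq2 called 0, 2 and 0, beside 0.56%, 19.4% and 0.00475%, and limma-voom called 1, 5 and 0, beside 13.5%, 28.9% and 0%. The nearest to the threshold were at 7 days, where the EZ effect minus the PIZ effect was -0.47 ± 0.14 (adjusted p = 0.0116) on the log2 scale for Btrc and 1.01 ± 0.30 (adjusted p = 0.0132) for Tcf7l1. Gsk3b, with -0.46 ± 0.15 (adjusted p = 0.0211), and Apc, with -0.61 ± 0.20 (adjusted p = 0.0221), followed. Without mouse 23 the effect differed for 4 of the 10 at 7 days, namely Gsk3b, Btrc, Tcf7 and Tcf7l1, beside 19.8% of all genes in that fit, and without mouse 26 for 3, namely Gsk3b, Btrc and Tcf7l1, beside 16.1%. Within the mice, the level of Tcf7l1 at 7 days was higher in the EZ than in the PIZ in 4 of 4 kainate-injected mice, by 0.69 to 1.78 on the log2 scale. Btrc was lower in the EZ in 4 of 4 kainate-injected mice at each of the 3 days, by a median log2 difference of -0.26, -0.53 and -0.11. Ctnnb1 was higher in the EZ in 4 of 4 at 3 and at 7 days and in 1 of 4 at 14 days. Of the saline-injected mice, 2, 1 and 1 of 4 had a higher Ctnnb1 level in the EZ at 3, 7 and 14 days, and 0, 1 and 2 of 4 a higher Btrc level, so the lower EZ level of Btrc was also seen in saline-injected mice at 3 days. Tcf7l1 at 7 days was higher in the EZ in 4 of 4 saline-injected mice too, by 0.023 to 0.54.

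Between days, the kainate effect in the EZ did not differ by call in edgeR from 3 to 7 days (0 of the 10, beside 0.145% of all genes) or from 7 to 14 days (0 of the 10, beside 0.295%). In these comparisons 1 and 8 of the 10 had an unadjusted p under 0.05 in edgeR, beside 12% and 33.1% of all genes. DESeq2 called 0 and 1, beside 0.58% and 6.77%, and limma-voom called 1 and 8, beside 6.58% and 35.5%. From 7 to 14 days the largest differences on the log2 scale were those of Tcf7l1, -1.13 ± 0.30 (adjusted p = 0.0187), and Tcf7l2, -1.03 ± 0.37 (adjusted p = 0.0508). Tcf7l2 had the largest difference from 3 to 7 days, 0.87 ± 0.36 (adjusted p = 0.307). The count of 0 from 7 to 14 days rested on single mice. Without mouse 27 it was 6 (Ctnnb1, Gsk3b, Apc, Btrc, Tcf7l1 and Tcf7l2), beside 22.2% of all genes in that fit. Without mouse 23 it was 4 (Gsk3b, Btrc, Tcf7l1 and Tcf7l2), beside 12.8%, and without mouse 26 it was 2 (Btrc and Tcf7l1), beside 5.12%. The 7-day groups are shared by both of these comparisons. In the PIZ the effects differed for 0 of the 10 from 3 to 7 days (beside 0.0234% of all genes) and from 7 to 14 days (beside 0%). In the PIZ 0 of the 10 had an unadjusted p under 0.05 in edgeR, beside 10.6% and 3.08% of all genes. DESeq2 called 0 in both, beside 0.132% and 0.00237%, as did limma-voom, beside 0.729% and 0.014%. In saline-injected mice the fitted difference between EZ and PIZ, as the mean of the 3 days, was at most 0.19 on the log2 scale in any of the 10, and none passed, beside 0.0234% of all genes. Single days and mice lay further apart, and Lef1 at 14 days was between -0.027 and 0.881 in the 4 mice, with a median of 0.32. For the mean of the days 0 had an unadjusted p under 0.05 in edgeR, beside 8.92% of all genes, and DESeq2 and limma-voom called 0, beside 0.0843% and 0.631%.

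The partners of the destruction complex that passed in kainate against saline were all lower with kainate. Of 20 partners (other kinases, scaffolds, ligase subunits and regulators), 9 fell and 0 rose in the EZ at 3 days and 11 fell and 0 rose at 7 days, with median log2 fold changes of -0.315 and -0.347 beside 0.032 and 0.011 over all genes. Of all genes, 14.7% fell and 20.5% rose at 3 days, and 19.7% fell and 25.9% rose at 7 days. The list mixes parts of the complex with regulators that act for or against it. Genes of both kinds were among the falls, so these counts give no direction of its activity. Gsk3a, the paralog of Gsk3b, fell from a median of 160.0 to 112 CPM at 3 days and from 166 to 105 CPM at 7 days, with log2 fold changes of -0.57 and -0.65. Amer3 and Amer2, members of the Apc-binding Amer family, fell at both days, Amer3 by 0.90 and 0.89 and Amer2 by 0.47 and 0.70 on the log2 scale. Apc2, the neuronal paralog of Apc, fell at 7 days by 0.65. In the PIZ at 3 days 5 fell, namely Csnk1a1, the priming kinase of beta-catenin, the ligase subunits Skp1, Cul1 and Rbx1, and the phosphatase subunit Ppp2ca, and none rose, beside 4.18% of all genes that fell and 8.12% that rose. These 5 were named after their values were seen. Without mouse 38, 6 partners fell at 3 days, beside 9.45% of all genes, and Amer2 (adjusted p = 0.0385 in edgeR) and Amer3 (adjusted p = 0.0507) did not pass. Without mice 21 and 35, 3 fell at 7 days, namely Gsk3a, Csnk1a1 and Ppp2r5d, beside 4.77% of all genes, and Amer2 (-0.42), Amer3 (-0.21) and Apc2 (-0.45) did not pass.

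Of 20 nuclear cofactors of beta-catenin and TCF/LEF, 3 fell in the EZ at 3 days, and 4 rose and 6 fell at 7 days, with median log2 fold changes of -0.007 and -0.044. The falls at 3 days were at the share of all genes (14.7%), where 20.5% rose, and at 7 days the rises were below and the falls above the shares of all genes, 25.9% and 19.7%. Pygo1, a co-activator that joins beta-catenin through Bcl9, had a median of 104 CPM with saline and 42 CPM with kainate at 3 days and fell by 1.30 on the log2 scale. In the PIZ at 3 days it was the only cofactor called and fell by 0.63 (adjusted p = 0.00233), as did 4.18% of all genes. The co-repressors of the TLE family did not move together, since at 7 days Tle2 fell by 1.13 and Tle3 rose by 0.90 on the log2 scale. Ctnnbip1, an inhibitor of the binding of beta-catenin to TCF, rose by 0.61 at 7 days. Without mice 21 and 35, Tle4 rose and Bcl9, Pygo1 and Tle2 fell at 7 days, beside 11.8% and 4.77% of all genes, and Tle3 (0.30) and Ctnnbip1 (0.36) did not pass.

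Among 10 catenins and cadherins, which hold beta-catenin at cell contacts, 5 rose (Jup, Ctnna1, Ctnnd1, Cdh2 and Cdh5) and 2 fell (Ctnna2 and Cdh11) in the EZ at 3 and again at 7 days, with medians of 0.358 and 0.35. Of all genes, 20.5% rose and 14.7% fell at 3 days and 25.9% rose and 19.7% fell at 7 days, so the falls were near the share of all genes and the rises above it. Ctnna1, the alpha-catenin of epithelial and glial contacts, had a median of 59.6 CPM with saline and 99.7 CPM with kainate at 3 days and rose by 0.88 on the log2 scale, and by 1.23 at 7 days. The neuronal alpha-catenin Ctnna2 went the other way, from 97.3 to 45.1 CPM at 3 days, with log2 fold changes of -1.05 at both days. Cdh5, the cadherin of endothelial cells, rose by 1.15 and 1.01, and Cdh11 fell by 0.95 and 0.79. Jup and Ctnna1 rose in the PIZ at 3 days, beside 8.12% of all genes. Without mice 21 and 35, Ctnna1 alone rose at 7 days (0.76) and Ctnna2 and Cdh11 fell, beside 11.8% and 4.77% of all genes, while Cdh5 (0.48) and Jup (0.32) did not pass.

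Of 17 genes known as targets of beta-catenin, Sp5, Dkk1 and Ascl2 had too few counts, and of the 14 tested 6 rose and 1 fell (Notum, an enzyme that inactivates Wnt ligands) in the EZ at 3 days, and 7 rose and 0 fell at 7 days. Of all genes, 20.5% rose and 14.7% fell at 3 days and 25.9% rose and 19.7% fell at 7 days. The median log2 fold changes of the targets were 0.057 and 0.383. Without mouse 38, 4 rose and 1 fell at 3 days of the 15 then tested, with a median of 0.022, beside 15% and 9.45% of all genes. Prox1, on this list, is also on the granule cell list. Cd44, an adhesion receptor also known from reactive astrocytes, had a median of 7.84 CPM with saline and 142 CPM with kainate at 3 days and 3.48 and 117 CPM at 7 days. Cd44 passed at 14 days in the EZ as well, at 3.98 on the log2 scale, where the kainate-injected mice ranged from 5.28 to 142 CPM with a median of 10.4 and the saline-injected mice from 1.95 to 3.76 CPM. Without mouse 27 the value was 1.72 and Cd44 did not pass (adjusted p = 0.246 in edgeR), so 1 library decided this call. In the PIZ at 3 days Cd44 rose by 4.63. Ccnd1, which drives entry into the cell cycle, rose by 2.26 and 2.14 on the log2 scale, and Myc by 1.59 and 1.47. Fosl1, an AP-1 subunit, had at most 5 reads in a saline library of the EZ at 3 days and 56 to 184 reads with kainate. Axin2, the usual reporter of the pathway, fell at 7 days while Ccnd1, Myc, Cd44 and Fosl1 rose. Without mice 21 and 35, 3 targets rose at 7 days, namely Ccnd1 (1.25), Cd44 (4.69) and Fosl1 (5.55), beside 11.8% of all genes, and Myc (0.82) did not pass.

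**Figure D4:**
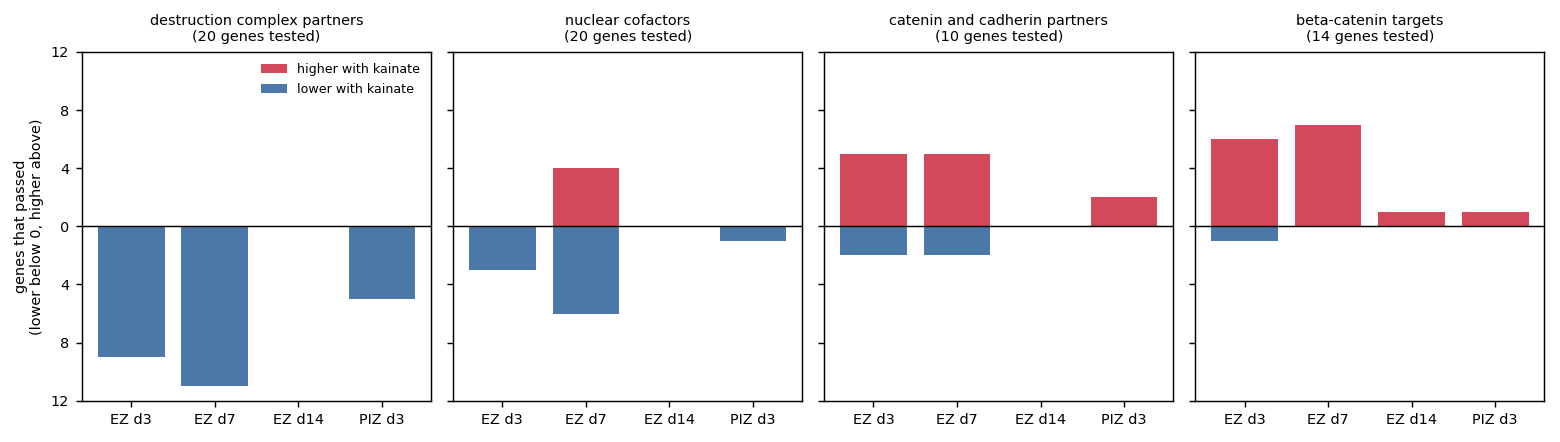
Number of genes that passed (y axis, bars from 0, higher with kainate above and lower below) in the 4 lists, in the EZ at 3, 7 and 14 days and in the PIZ at 3 days. The destruction complex partners have 9, 11, 0 and 5 genes below 0 and none above, and the targets have 6, 7, 1 and 1 genes above.

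The genes whose levels followed each member most closely over the 48 libraries were named by their Pearson correlation on log2 CPM. For Gsk3b these were Miga1 (0.981), Kif21a (0.978) and Ube2k (0.976), and for Btrc Fhip1b (0.975), Lrfn5 (0.969) and Sgip1 (0.968). Apc was nearest to Uhmk1 (0.92), Slc6a7 (0.92) and Stmn2 (0.915), and Axin2 to Scnn1a (0.876), Mllt6 (0.868) and Cc2d2a (0.861). Axin1, which had not passed anywhere, had its closest genes at lower values, Chd4 (0.69), Patz1 (0.638) and Map3k3 (0.634).

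Ctnnb1 was nearest to Tll1 (0.94), Fosl2 (0.924) and Tmem100 (0.907). The factor Tcf7l1 was nearest to Plxnb2 (0.946), Gnai2 (0.946) and Tpp1 (0.944), and Tcf7l2 to Tns3 (0.913), Epb41l2 (0.907) and Ankrd44 (0.905). For Tcf7 the genes were Mtap (0.919), Col18a1 (0.91) and Rai14 (0.906), and for Lef1 Cad (0.828), Utp11 (0.786) and Txlna (0.766). Among the members themselves the closest pairs were Gsk3b with Btrc (0.919) and Tcf7l1 with Tcf7l2 (0.866), and the most opposed was Btrc with Tcf7l1 (-0.907). These libraries share treatment groups, mice and scaling, and the values are descriptions.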

How the data were processed

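RNA of the dorsal dentate gyrus was measured in 48 poly-A selected, stranded libraries from both sides of 24 mice, in 12 groups of 4 that follow the labels for tissue, treatment and time. The authors trimmed reads with fastp 0.20.1, aligned them with HISAT2 2.2.1 to GRCm39, counted them by strand on Gencode M28 genes with featureCounts of Subread 1.6.4, and deposited raw counts per gene and library without normalization. Reads that map to several places were counted at the primary alignment and reads that overlap several genes at the gene with the largest overlap, so counts of genes with close relatives or shared exons are less certain. Of the gene identifiers, 98.90% matched Gencode M39, which gave positions and lengths.

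The counts were analysed with edgeR 4.0.16 in R 4.3.3. Low genes were removed with filterByExpr, and the rest were scaled by TMM and fitted with 1 mean per group on all 48 libraries, and quasi-likelihood tests were adjusted over the 21390 genes tested (99.92% of counts) within each of 14 comparisons. A gene passed at an adjusted p under 0.01. An SE is the size of the fitted log2 change over the root of its F statistic. Non-overlap of groups was read on log2 CPM with a prior count of 2. The scripts were tested on simulated counts with known changes. No pair of libraries in a group agreed within sampling noise (smallest chi-square per degree of freedom 4.16). Library totals were 17762656 to 25712975 (median 22108562.5), so precision was limited mainly for the TCF/LEF factors.

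Both libraries of a mouse carry its number in their titles, which pairs EZ and PIZ, and their residuals correlated between -0.054 and 0.376 (median 0.208). The alternatives were other scalings, filters, thresholds and sets of libraries, the longest transcript as length, a prior count of 0.5, DESeq2 1.42.0, limma 3.58.1 (voom with quality weights), a block for mouse, and each mouse left out in turn. Leaving out mice 21 and 35 together, and leaving mice out of the counts for pathway lists, were chosen after seeing the data.

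The genes named are the 10 members, for each the 3 genes with the highest Pearson correlation over the libraries, up to 4 DEG with the largest EZ change from each of 4 lists of pathway genes, the 2 most abundant markers of each cell type set beside a result, and Tcf4. A gene that this rule selects is not reported here. For some counts of 5 or fewer the genes are named too, after their values were seen. The members and lists were chosen with earlier results of these data known. Promoter windows came from RefSeq on GRCm38.p6.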

Additional observations from a re-analysis of the deposited data

Results flagged for a closer look

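In 3 of 120 groups of 4 libraries, 1 library lay further from the other 3 than Dixon's 95% critical value for 4 values allows, measured as its gap divided by the range, where chance alone flags about 1 in 20 groups. Ctnnb1 in the EZ of kainate-injected mice at 14 days had 734.6 CPM in mouse 27, with a gap of 0.86 of the range. Apc in the EZ of saline-injected mice at 14 days had its lowest value, 242.1 CPM, in mouse 39 (0.839 of the range), and Apc in the PIZ of kainate-injected mice at 7 days had its highest, 446.0 CPM, in mouse 21 (0.898 of the range). Mouse 21 had one of the lowest EZ levels of Apc at 7 days, 203 CPM, so its 2 sides differed by -1.13 on the log2 scale, the largest difference between sides of Apc in that group.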

How the results depend on the processing

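The numbers of members called in the EZ at 3 days (6) and 7 days (9) stayed within 1.5 times with RLE size factors, library size alone, both other filters, DESeq2 and limma-voom, and no called member changed sign under any alternative run. With a fold over 1.5 also required, or with glmTreat against a fold of 1.2, 3 members were called in the EZ at 3 days. With an adjusted p under 0.05, 3 were called in the PIZ at 3 days, 4 in EZ minus PIZ at 7 days and 4 in EZ day 14 minus day 7. Library size alone gave 1 in the PIZ at 3 days and moved the median log2 fold change of all genes at 3 days to 0.159 (EZ) and 0.111 (PIZ). DESeq2 called 1 in the PIZ at 3 days, 2 in EZ minus PIZ at 7 days and 1 in EZ day 14 minus day 7. limma-voom with quality weights called 3 in the PIZ at 3 days, 1 in the PIZ at 7 days, 1 and 5 in EZ minus PIZ at 3 and 7 days, and 1 and 8 between successive days in the EZ. With only the groups compared in the model, 2 were called in the EZ at 7 days and 3 in the PIZ at 3 days. With only the libraries of the region, 3 were called in the EZ at 3 days, 4 in the PIZ at 3 days and 1 in the PIZ at 7 days. Without kainate mice 21 and 35, chosen after seeing the data, 3 were called in the EZ at 7 days. The cause of these differences was not tested.

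With each mouse left out, the number called ranged from 3 (without mouse 38) to 7 in the EZ at 3 days, 8 to 9 in the EZ at 7 days, 0 to 4 in EZ minus PIZ at 7 days (4 without mouse 23, 3 without mouse 26) and 0 to 6 in EZ day 14 minus day 7 (6 without mouse 27, 4 without mouse 23, 2 without mouse 26), and it was 0 in each of the other comparisons. With a block for mouse, which pairs the sides, 0 members were called in EZ minus PIZ at each day and in saline-injected mice, as without it, with Btrc at -0.50 (adjusted p = 0.0107) and Tcf7l1 at 0.96 (adjusted p = 0.0107) at 7 days. The block changed no call. Counts of 37 to 343 reads per library for the TCF/LEF factors limit the size of difference that could be called.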
